A study of Mus musculus with 31 samples.

Results

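Group 2 innate lymphoid cells (ILC2) from the lungs of 2 mouse models were compared across 7579 protein-coding genes, in 2 libraries named dKO and 3 named Id1, which are 5 of the 31 samples of the study. The dKO mice carry floxed alleles of E2A (symbol Tcf3) and of HEB (symbol Tcf12) with the Cre transgene plck-Cre, and their genotype is given as plck-Cre; E2Af/fHEBf/f. The Id1 mice are named by their titles and carry a plck-Id1 transgene, although the genotype entries of the libraries numbered 2 and 3 read plck-Id2 and plck-Id3. All mice are of strain C57BL/6. The sources used here give neither their age nor the markers by which the cells were sorted, and the mesenteric lymph node samples that the design names were not analysed here. The plck (proximal Lck) promoter is active in developing T cells, and it drives Cre in one model and the transgene in the other. No lung library without either alteration is among these samples, so each difference is between the models, and other differences between the mouse lines cannot be told apart from the genotype. Nothing says that the libraries of a group come from separate animals, so the p-values measure only the spread between these samples. Genes were kept where the mean over at least 1 group reached 20 CPM (each count scaled to its library's total), out of 48881 genes in the table. Nearest that limit, Fdft1 and Hmmr were left out at a higher group mean of 19.99 CPM, and Igsf9b and Fbn2 were kept at 20.01 CPM.

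E proteins are basic helix-loop-helix transcription factors that bind E-box motifs and drive T cell development. Id proteins pair with E proteins and keep them from DNA, so an Id1 transgene and loss of E2A and HEB are alternative ways of lowering E protein activity. ILC2 are tissue-resident lymphocytes without a rearranged antigen receptor on their surface that depend on Gata3 and Rora, respond to IL-33, IL-25 and neuropeptides, and in the lung secrete type 2 cytokines and the repair factor amphiregulin.

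Counts totalled 5627406 and 3695522 in dKO replicates 1 and 3, and 9671437 to 13065445 in the Id1 libraries. Mitochondrial ribosomal RNA, 13 genes related in sequence to Gm10800, and the olfactory and vomeronasal receptor genes (Olfr and Vmn, known from sensory neurons) were left out before scaling, which left 3491964 and 1411641 counts in dKO and 4857071 to 8958096 in Id1. The dKO replicate 3 stood apart: the Gm10800 family took 48.9% of its counts, against 7.32% in dKO replicate 1 and 0.513% to 3.21% in Id1. Its Olfr and Vmn genes had 3.71 CPM per kilobase of exon, against 0.878 in dKO replicate 1 and 0.126 to 0.258 in Id1, so this level was higher in both dKO libraries than in any Id1 library and cannot be told apart from genotype by design. Across the fitted genes, log2(CPM + 1) of the dKO libraries correlated with each other at 0.619, less than dKO replicate 1 did with the Id1 libraries (0.795 to 0.821), while the Id1 libraries correlated with each other at 0.934 to 0.979. These are descriptions across genes, which are not independent replicates.

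**Figure D1:**
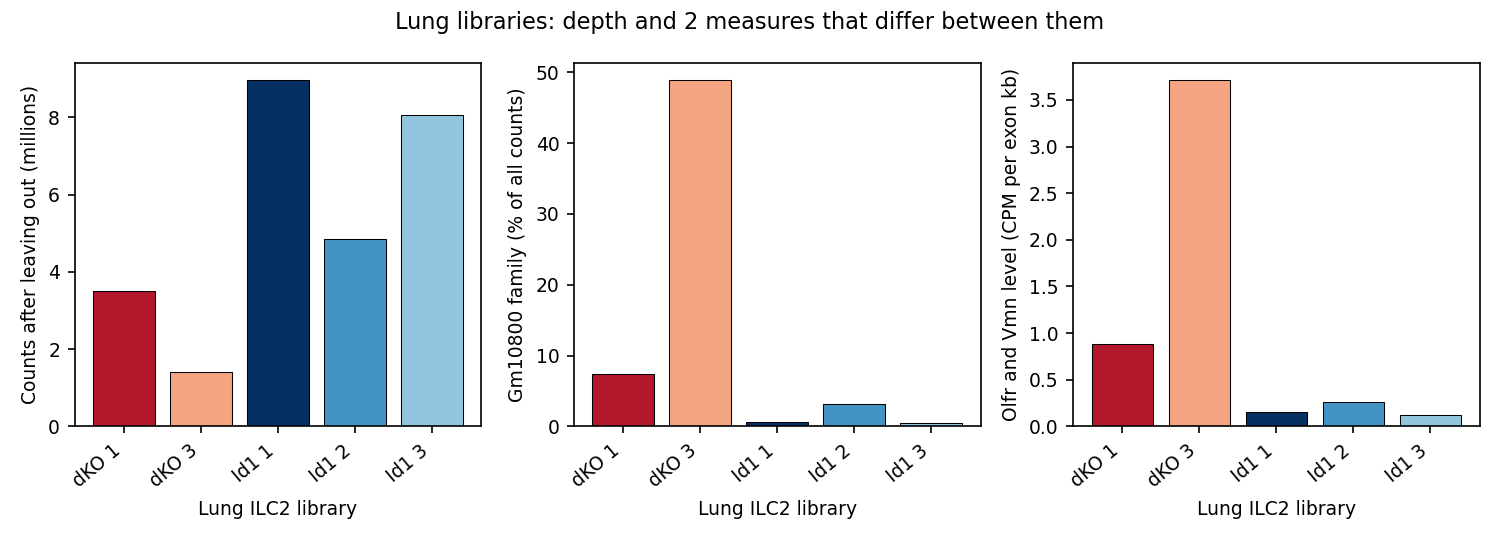
The 5 lung libraries, with counts left after removal of the named families (left), the Gm10800 family as a percentage of all counts (middle) and the mean Olfr and Vmn level in CPM per kilobase of exon (right). Each bar is 1 library. The dKO replicate 3 has the fewest counts and the highest bars in the other panels.

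Because these are bulk samples, fewer cells of a type and less RNA per cell cannot be told apart. The ILC2 marker genes Il1rl1, Gata3 and Il7r were abundant in both models. Il1rl1, the IL-33 receptor, was at 3254 and 2210 CPM in dKO and 2408 to 2496 CPM in Id1, and did not pass (log2 dKO minus Id1 0.18 ± 0.22, adjusted p = 0.590). Gata3 was at 704 and 349 CPM in dKO and 466 to 523 CPM in Id1 (0.14 ± 0.30, adjusted p = 0.778). Il7r, the IL-7 receptor, was at 2514 and 1651 CPM against 2427 to 2957 CPM (adjusted p = 0.310). Other ILC2 markers differed, as given below: Areg and Calca were higher in dKO and Rora was lower. Id2, Icos and Il17rb lay below every Id1 library in dKO without passing. So did Il2ra, at 1120 and 458 CPM against 1349 to 1578 CPM (adjusted p = 0.130). Here and below, ± is the standard error of the log2 change, adjusted p is from edgeR's quasi-likelihood test with Benjamini-Hochberg adjustment over the 7579 genes, and a gene passed at an adjusted p under 0.05.

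Of the 7579 genes, 610 passed (8.05%), with 410 higher in dKO (5.41%) and 200 lower (2.64%). The libraries of the groups did not overlap for 1995 genes that were higher (26.3%) and 1853 that were lower (24.4%), so non-overlap alone was common. Of the 410, 338 were fitted through the dKO mean alone, as were 1805 genes in all, and 58 of the 200 through the Id1 mean alone, as were 798, so the split between higher and lower calls depends in part on the limit of 20 CPM. Without dKO replicate 3, 69 genes passed, 43 higher and 26 lower, and 40 and 21 of them were among the 410 and 200. Without dKO replicate 1, 2033 passed, 1170 higher and 863 lower. Without Id1 replicate 1, 2 or 3, 20, 9 or 85 genes passed. Where dKO was left with 1 library, that library was assumed to vary like the Id1 libraries. The genes that passed with all libraries kept and with each of the 5 left out in turn were 6: Areg, Calca, Mid1, Naip1 and Hist1h2bc, higher in dKO, and Ccr8, lower. In these 5 fits no gene of the 610 passed in the opposite direction. With the wider set of 18104 genes kept by edgeR's filterByExpr, which holds genes other than protein-coding ones, 17.5% passed, 14% higher and 3.51% lower.

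**Figure D2:**
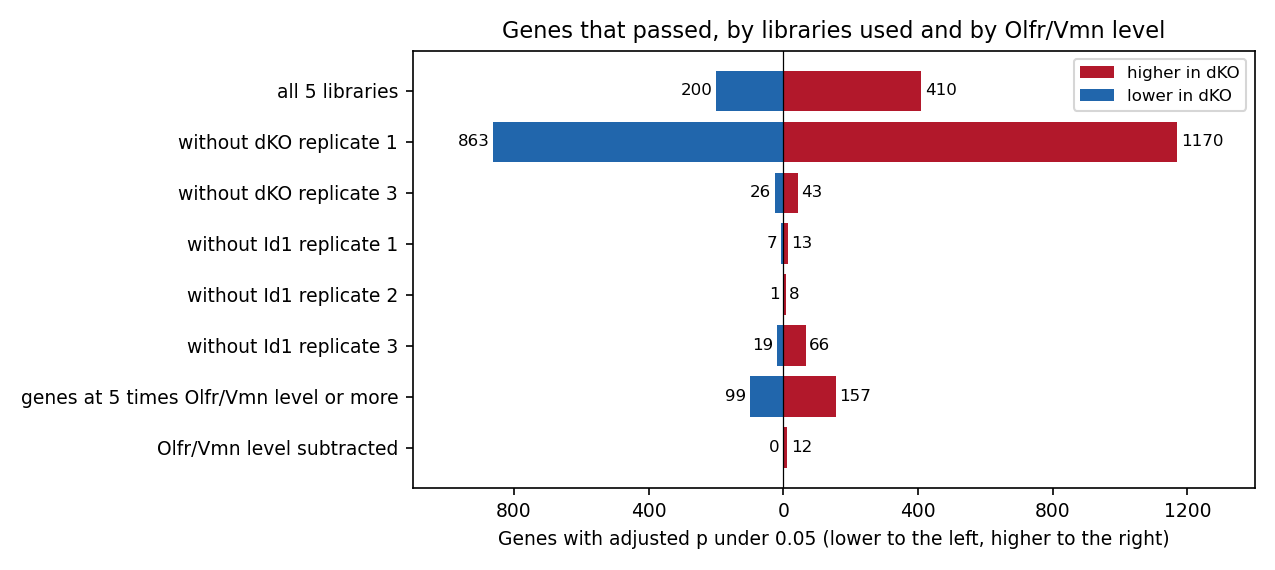
Genes that passed with all 5 libraries, with each library left out in turn, among genes at 5 times the Olfr and Vmn level or more, and after that level was subtracted. Bars to the right count genes higher in dKO and bars to the left genes lower in dKO. The counts run from 9 without Id1 replicate 2 to 2033 without dKO replicate 1.

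The 4 genes at the centre of this comparison are 2 secreted products, Areg and Calca, and 2 receptors, Ccr8 and Kit. Areg encodes amphiregulin, a ligand of the EGF receptor, and lies on chromosome 5 (91139599 to 91148432, plus strand). Calca encodes the precursor of the neuropeptide CGRP and lies on chromosome 7 (114631478 to 114636357, minus strand). Ccr8 encodes a chemokine receptor on chromosome 9 (120092114 to 120094906, plus strand), and Kit the stem cell factor receptor on chromosome 5 (75574916 to 75656722, plus strand), positions being those of GENCODE M21 on mm10. Their upstream sequences are shown because E proteins bind E-boxes and both models act on E proteins. The sequences are from RefSeq on GRCm38.p6, each read 5′ to 3′ on the gene's strand and ending before the first annotated start, with the E-box forms CAGGTG or CACCTG (the same site on the other strand) and CAGCTG in capitals.
Areg, chr5:91139349-91139598 (plus strand): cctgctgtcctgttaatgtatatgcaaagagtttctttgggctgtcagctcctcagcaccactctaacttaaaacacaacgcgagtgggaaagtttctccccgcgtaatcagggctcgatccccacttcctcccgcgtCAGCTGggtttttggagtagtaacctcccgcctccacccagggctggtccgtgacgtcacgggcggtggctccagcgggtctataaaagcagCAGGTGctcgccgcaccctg
Calca, chr7:114636358-114636607 (minus strand): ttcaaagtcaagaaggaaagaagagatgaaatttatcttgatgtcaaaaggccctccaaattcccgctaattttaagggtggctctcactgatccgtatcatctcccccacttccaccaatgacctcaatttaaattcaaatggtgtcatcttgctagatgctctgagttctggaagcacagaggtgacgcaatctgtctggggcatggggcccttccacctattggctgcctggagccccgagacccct
Ccr8, chr9:120091883-120092113 (plus strand): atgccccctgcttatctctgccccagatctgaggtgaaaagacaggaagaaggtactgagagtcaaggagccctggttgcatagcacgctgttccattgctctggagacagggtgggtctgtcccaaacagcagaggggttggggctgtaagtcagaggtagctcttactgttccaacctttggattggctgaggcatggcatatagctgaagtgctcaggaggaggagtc
Kit, chr5:75574737-75574915 (plus strand): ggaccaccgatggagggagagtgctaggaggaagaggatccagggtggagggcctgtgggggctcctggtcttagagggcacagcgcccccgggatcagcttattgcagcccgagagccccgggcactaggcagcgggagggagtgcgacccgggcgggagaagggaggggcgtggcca

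In the 250 bases before the RefSeq start, Areg held 1 CAGCTG and 1 CAGGTG, and Calca, Ccr8 and Kit held none of these forms. The stretches shown above are 250 bases for Areg and Calca, but only 231 for Ccr8 and 179 for Kit. The rest of the searched windows of Ccr8 and Kit is not shown. Of 27025 promoter windows of the same length, 17.1% held CAGGTG or CACCTG and 12.8% held CAGCTG. No 6 bases are both forms at once, and a match is a run of letters, not a measured site. Among windows of genes higher in dKO, 54 of 310 held CAGGTG or CACCTG, and among genes lower in dKO 16 of 165, beside 872 of 6035 over the fitted genes with a window. For CAGCTG the order was the other way, with 33 of 310, 26 of 165 and 628 of 6035, and windows with either form made up 24.5% of the higher, 23.0% of the lower and 23.2% of the fitted genes. The share was smaller among higher genes at 5 times the Olfr and Vmn level per kilobase or more in both dKO libraries. Of their 73 windows, 8 held CAGGTG or CACCTG, 4 held CAGCTG and 9 held either form (12.3%). These shares were not tested.

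Areg was at 958 and 682 CPM in dKO replicates 1 and 3 and at 24.9, 25.3 and 13.6 CPM in Id1 replicates 1, 2 and 3. Both dKO libraries lay far above all Id1 libraries, a log2 change of 5.29 ± 0.37 (adjusted p = 0.00114), and the adjusted p without any 1 library was at most 0.0380. Calca was at 317 and 385 CPM in dKO and 29.0, 22.9 and 30.2 CPM in Id1, higher by 3.72 ± 0.29 (adjusted p = 0.00134), and it too held without any 1 library. Per kilobase of exon, Areg and Calca stood at least 151 and 61.6 times the Olfr and Vmn level of the same dKO library.

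Ccr8 was at 7.73 and 6.38 CPM in dKO and 130, 106 and 135 CPM in Id1, lower in dKO by 4.08 on the log2 scale (-4.08 ± 0.37, adjusted p = 0.00352). This low level was 36 counts in both dKO libraries together. Kit was at 48.1 and 108 CPM in dKO and 758, 539 and 727 CPM in Id1 (-3.07 ± 0.42, adjusted p = 0.0155), so every dKO library was below every Id1 library. The Kit change did not pass without Id1 replicate 1 (adjusted p = 0.0506) or without Id1 replicate 2 (0.0688).

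**Figure D3:**
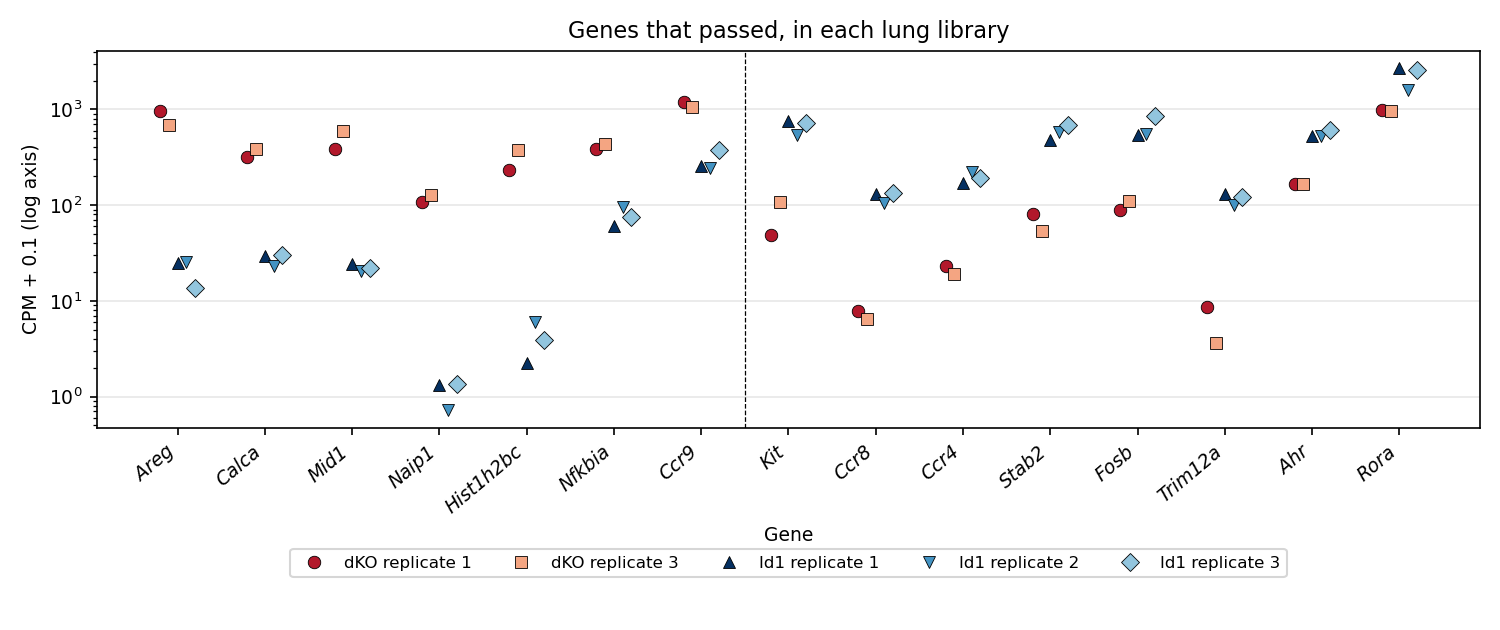
Level of 15 genes that passed, as CPM + 0.1 on a log axis, with 1 symbol for each of the 5 lung libraries. Genes left of the dashed line are higher in dKO and genes right of it lower. The dKO symbols (red) and Id1 symbols (blue) do not overlap for any of these genes.

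The altered genes themselves were read next. Id1 RNA was at 0 and 0.708 CPM in dKO and 37.4, 164 and 85.2 CPM in the Id1 libraries, all 3 of which thus carried Id1 RNA whatever their genotype entry. It was 1 count in both dKO libraries together against 1820 in Id1, a ratio of 408 in pooled CPM (95% interval 73.1 to 16118, counting error only, adjusted p = 0.0156), and it did not pass without dKO replicate 3 or Id1 replicate 2 (adjusted p 0.0551 and 0.0744). Id3 had no count but 2 in Id1 replicate 2. Id2, the Id gene that all ILC need, was at 88.2 and 36.1 CPM in dKO and 127 to 176 CPM in Id1 and did not pass (-1.24 ± 0.40, adjusted p = 0.0787). Tcf12 (HEB) was at 196 and 285 CPM in dKO and 274 to 370 CPM in Id1 (-0.35 ± 0.30, adjusted p = 0.439). Tcf3 (E2A) was at 5.73 and 6.38 CPM in dKO and 15.9, 15.4 and 15.6 CPM in Id1, under the limit of 20 CPM, and was not tested here. A gene count includes exons outside the floxed part, so Tcf3 and Tcf12 counts need not reach 0 in dKO.

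Beyond Areg and Calca, the other secreted products split. Of 11 fitted type 2 cytokines and effectors, 4 were higher (Areg, Calca, Ccl5 and Ccl3) and 2 lower (Pcsk1 and Furin). Over all fitted genes 5.41% were higher and 2.64% lower. Areg and Calca are central genes of this comparison, and the list was chosen with earlier results of these data known. The count is thus no independent support. The list's median log2 change was 1.08 beside 0.01 over all fitted genes. Of these 11, 5 were fitted through their dKO mean alone, Ccl5 and Ccl3 among them, which tilts the count and the median towards higher. The chemokine gene Ccl5 was at 30.1 and 43.2 CPM in dKO and at most 0.868 CPM in Id1 (6.31 ± 1.30, adjusted p = 0.0331). The chemokine gene Ccl3 was at 56.4 and 19.1 CPM against 1.23 to 3.71 CPM (4.13 ± 0.97, adjusted p = 0.0447). The proprotein convertase genes, whose products cut peptide precursors, went the other way: Pcsk1 was at 54.7 and 38.3 CPM in dKO against 121 to 234 CPM (-1.85 ± 0.36, adjusted p = 0.0301), and Furin at 43.0 and 31.2 CPM against 77.4 to 119 CPM (-1.34 ± 0.34, adjusted p = 0.0495). The hallmark cytokine genes were low in all libraries. Il13 was at 0.286 and 1.42 CPM in dKO and 3.57 to 13.4 CPM in Id1, under the limit of 20 CPM, and Il5 at 5.73 and 46.0 CPM against 3.35 to 28.0 CPM (adjusted p = 0.551). Arg1, the arginase gene of ILC2, was at 89.3 and 24.8 CPM in dKO and 147 to 355 CPM in Id1 and did not pass (adjusted p = 0.0702).

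Among 25 fitted ILC2 receptors and surface molecules, 5 were lower in dKO (Kit, Calcrl, Cd44, Ly6a and Il2rg) and none higher. Over all fitted genes 2.64% were lower and 5.41% higher, and the list's median log2 change was -0.36. Kit is a central gene of this comparison, and the list was chosen with earlier results of these data known. The count is thus no independent support. Calcrl, a subunit of the CGRP receptor, was at 103 and 122 CPM in dKO and 348, 500 and 354 CPM in Id1 (-1.80 ± 0.31, adjusted p = 0.0234), against the direction of Calca. Cd44, the hyaluronan receptor, was at 221 and 87.8 CPM against 585 to 703 CPM (-2.0 ± 0.38, adjusted p = 0.0297), Ly6a (Sca-1) at 105 and 84.3 CPM against 252 to 568 CPM (-2.05 ± 0.40, adjusted p = 0.0297). Il2rg, the shared chain of the IL-2 and IL-7 receptors, was at 207 and 130 CPM against 390 to 629 CPM (-1.49 ± 0.33, adjusted p = 0.0375). The other members included Icos, at 603 and 252 CPM against 871 to 971 CPM (-1.07 ± 0.34, adjusted p = 0.0787), and Il17rb, the IL-25 receptor, at 453 and 412 CPM against 750 to 786 CPM (-0.80 ± 0.22, adjusted p = 0.0570). For both, dKO lay below every Id1 library without passing.

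The chemokine receptors changed in both directions. Of 11 fitted chemokine and egress receptors, 2 were higher in dKO and 3 lower, beside 5.41% and 2.64% over all fitted genes. The list's median log2 change was -0.48. Cx3cr1 was fitted through its dKO mean alone and Ccr8, a central gene of this comparison, through its Id1 mean alone. The list was chosen with earlier results of these data known, so the count is no independent support. Ccr9, the receptor for the thymic and gut chemokine CCL25, was at 1205 and 1053 CPM in dKO and 257, 247 and 377 CPM in Id1 (1.98 ± 0.25, adjusted p = 0.0107). Cx3cr1 was at 23.2 and 75.1 CPM against 0.992 to 2.47 CPM (5.04 ± 0.87, adjusted p = 0.0251). Ccr4, a receptor for CCL17 and CCL22, was at 22.9 and 19.1 CPM in dKO and 169, 223 and 192 CPM in Id1 (-3.17 ± 0.33, adjusted p = 0.00574). Ccr2 was at 69.9 and 147 CPM in dKO and 346 to 514 CPM in Id1 (-1.98 ± 0.40, adjusted p = 0.0323). Ccr8 and Ccr4, both receptors of type 2 lymphocytes, were thus both lower in dKO. Of 12 fitted integrins and adhesion genes 1 was higher, fitted through its dKO mean alone, and 1 lower, near the shares over all fitted genes. Itgb3 fell (265 and 132 CPM against 539 to 901 CPM, -1.90 ± 0.35, adjusted p = 0.0297). Itga1 was called higher (16.6 and 65.2 CPM against 1.49 to 4.12 CPM, 4.09 ± 0.97, adjusted p = 0.0451). Per kilobase of exon, however, Itga1 stood at 1.02 and 0.944 times the Olfr and Vmn level in dKO replicates 1 and 3. In Id1 it stood at 0.637 to 0.860 times that level. Whether Itga1 rose beyond this level was not tested. Itga4, the most abundant, was at 5142 and 4100 CPM against 3494 to 4064 CPM and did not pass (adjusted p = 0.364).

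Of 17 fitted ILC2 transcription factors only Rora passed, beside 8.05% of all fitted genes. In 5 of 5 fits with a library left out Rora did not pass. It was at 976 and 963 CPM in dKO and 2713, 1584 and 2589 CPM in Id1 (-1.20 ± 0.28, adjusted p = 0.0432), and its adjusted p without 1 library ranged from 0.0618 to 0.143. The list's median log2 change was -0.45. Bcl11b, at 271 and 210 CPM against 230 to 478 CPM, and Ets1, at 565 and 290 CPM against 607 to 725 CPM, did not pass (adjusted p = 0.225 and 0.172). Ahr, the ligand-activated transcription factor that is also listed with the ILC3 genes, was at 165 and 164 CPM in dKO and 532, 530 and 610 CPM in Id1 (-1.72 ± 0.24, adjusted p = 0.0153) and did not pass without Id1 replicate 1, 2 or 3. The immediate early gene Fosb, an AP-1 subunit, was at 88.5 and 109 CPM against 545 to 851 CPM (-2.67 ± 0.31, adjusted p = 0.00750) and Hspa8 at 346 and 149 CPM against 572 to 1144 CPM (-1.74 ± 0.42, adjusted p = 0.0461), as the 2 of 17 fitted members of their list that passed. Fos was at 202 and 147 CPM against 85.4 to 169 CPM and did not pass (adjusted p = 0.518).

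**Figure D4:**
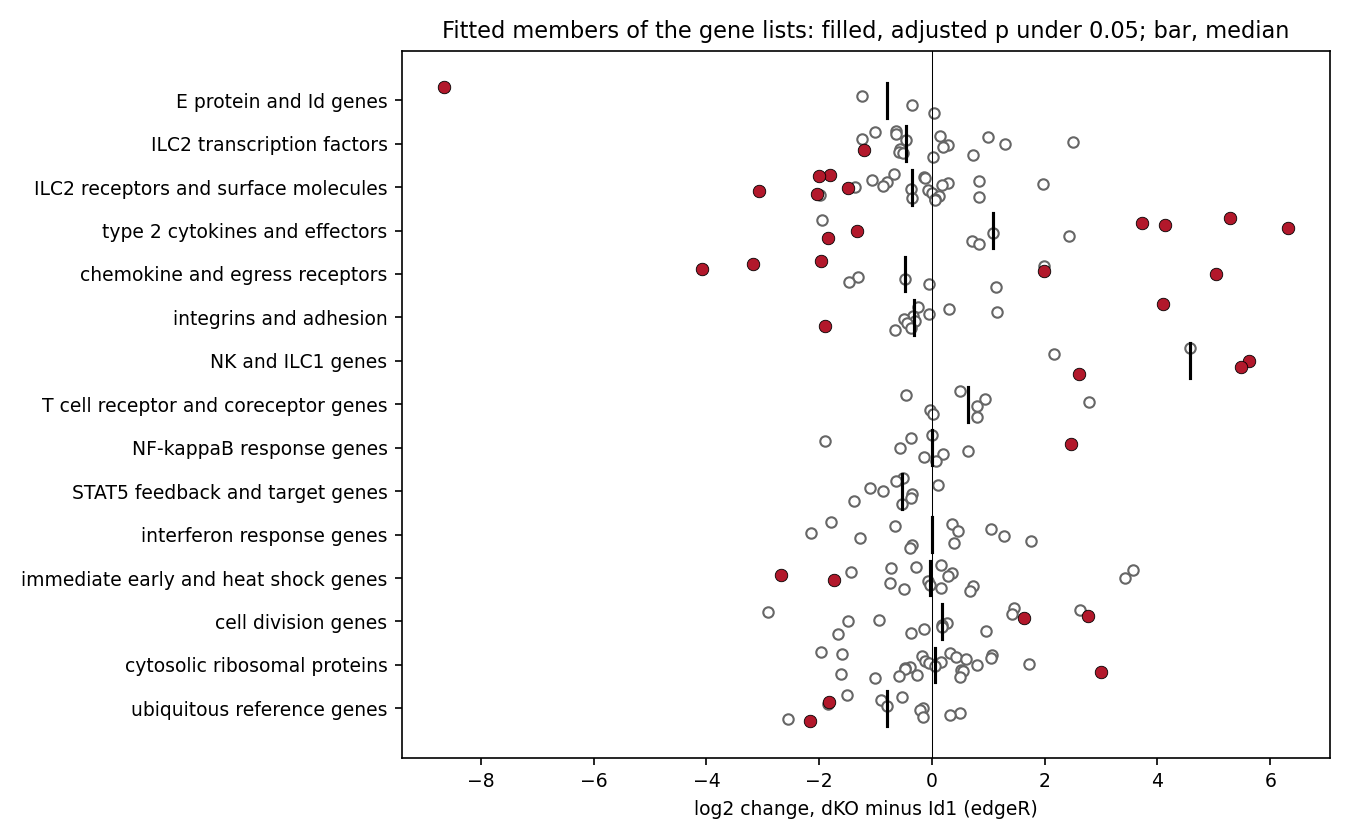
log2 change of each fitted member of 15 gene lists, dKO minus Id1, from edgeR. Filled points passed at an adjusted p under 0.05 and the vertical bar is the list's median. Changes run from -8.65 (Id1) to 6.31 (Ccl5) in these lists, and most members did not pass.

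A few genes outside the lists had the smallest adjusted p-values, and these were chosen after their values were seen. Mid1, an E3 ubiquitin ligase of microtubules on the X chromosome, was at 384 and 598 CPM in dKO and 24.3, 20.2 and 21.8 CPM in Id1 (4.52 ± 0.32, adjusted p = 0.00114). Naip1, a NLR family sensor of bacterial proteins, was at 109 and 126 CPM in dKO and 1.23, 0.618 and 1.24 CPM in Id1 (6.80 ± 0.46, adjusted p = 0.00114), and the histone gene Hist1h2bc was at 234 and 380 CPM against 2.12 to 5.97 CPM (6.36 ± 0.50, adjusted p = 0.00142). Muc6, a secreted mucin gene, was at 226 and 493 CPM against 8.44 to 15.7 CPM (4.96 ± 0.46, adjusted p = 0.00352). Naip1 has near relatives on chromosome 13 whose reads could be shared. Naip6 was higher as well (97.7 and 112 CPM against 9.88 to 36.0 CPM, 2.20 ± 0.50, adjusted p = 0.0401), while Naip5 and Naip2 did not pass (adjusted p = 0.494 and 0.822).

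Other abundant genes rose by smaller factors. Nfkbia, the inhibitor of NF-kappaB, was at 389 and 435 CPM in dKO and 59.7, 94.9 and 74.8 CPM in Id1 (2.47 ± 0.29, adjusted p = 0.00750). It was the 1 of 9 fitted NF-kappaB response genes that passed, beside 8.05% of all fitted genes. Tnfaip3, another of that list, was at 2332 and 1245 CPM against 1666 to 2248 CPM and did not pass (adjusted p = 0.741). Zfp36l1 and Zfp36l2, RNA-binding proteins that promote mRNA decay, were both higher: Zfp36l1 at 1144 and 1629 CPM against 214 to 323 CPM (2.51 ± 0.31, adjusted p = 0.00973), and Zfp36l2 at 2250 and 2064 CPM against 904 to 1016 CPM (1.21 ± 0.20, adjusted p = 0.0224). Txnip, the thioredoxin-interacting protein, was at 823 and 720 CPM against 184 to 224 CPM (1.92 ± 0.22, adjusted p = 0.00750). Smc4, a condensin subunit, was at 1223 and 1017 CPM against 410 to 429 CPM (1.45 ± 0.21, adjusted p = 0.0170). Zfp36l1, Zfp36l2, Txnip and Smc4 were picked for small p-values after their values were seen, which favours genes with little spread within groups.

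The 15 largest positive changes came from genes with no count in any Id1 library: Adgrf1, Fnd3c2, Vgll3, Erbb4, Ncan, Tmprss11f, Hsd3b3, Arhgef37, Tmem196, Asap3, Phf24, Stox2, Scgb2b26, Psg29 and Slc22a19. Their dKO levels were 2.29 to 106 CPM in replicate 1 and 4.96 to 105 CPM in replicate 3, with replicate 3 the higher for 14 of 15. Against a floor of 3 counts over the Id1 group, pooled levels were at least 140-fold higher for Psg29 and at least 559-fold higher for Vgll3, the ends of the range. Of these 15, 14 lay under 5 times the Olfr and Vmn level per kilobase in at least 1 dKO library, Scgb2b26 being the exception. Erbb4 encodes a neuregulin receptor, Ncan a brain proteoglycan and Hsd3b3 a steroid dehydrogenase. None of them passed without Id1 replicate 1 or without Id1 replicate 2, and 14 did not pass without dKO replicate 3, while Vgll3 did not pass without dKO replicate 1. The highest adjusted p over the 15 genes and these 5 fits was 0.262.

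Of all 410 genes that were higher, 312 (76.1%) were under 5 times the Olfr and Vmn level in at least 1 dKO library, beside 79.7% of all fitted genes, so this share was near the background. The median level over the 312 genes was 18.04 and 69.07 CPM in dKO replicates 1 and 3, and the median of their Id1 means 0.555 CPM. Their median exon length was 8479 bases, against 5782 over all fitted genes. The other 98 had medians of 133 and 167 CPM in dKO and 31.7 CPM in Id1, with a median exon length of 3190 bases and a median log2 change of 2.12. After the Olfr and Vmn level per kilobase was subtracted from each library, 12 genes passed, all higher in dKO, among them Areg, Calca, Mid1, Naip1, Hist1h2bc, Muc6, Rsrp1, Neurl3, Txnip, Ccr9 and Smc4. No gene passed as lower in that fit, where Ccr8 was at an adjusted p of 0.0615 and Kit at 0.114. The subtraction was chosen after the data were seen.

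**Figure D5:**
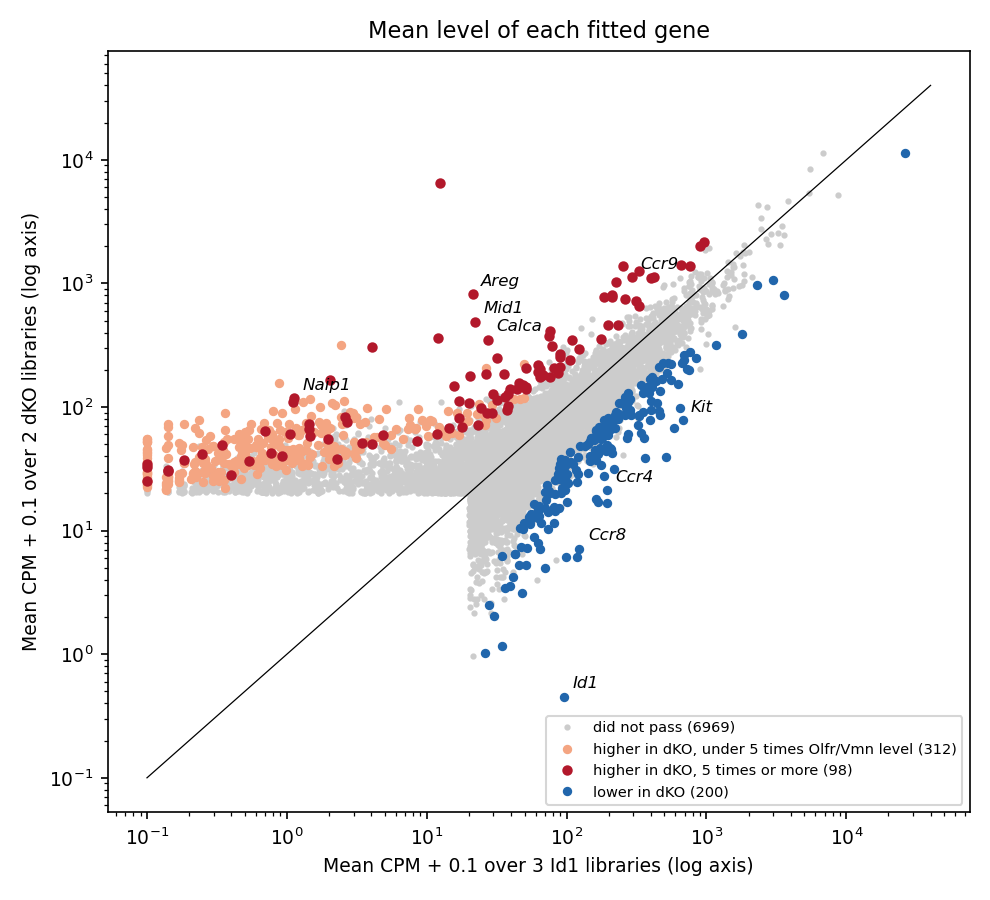
Mean CPM + 0.1 of each of the 7579 fitted genes over the Id1 libraries (x, log axis) and the dKO libraries (y, log axis), with the line of equal levels. The 312 light red genes are higher in dKO and under 5 times the Olfr and Vmn level in at least 1 dKO library, the 98 dark red genes are at 5 times or more, and the 200 blue genes are lower in dKO.

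The 15 largest negative changes were those of Id1 and of 14 other genes: Trim34a, Tm9sf1, Trim12a, Ccr8, Tmem176a, Cuta, Bend3, Trim30d, Tagln2, Fam124b, Ica1l, Lgals3bp, Zfp574 and Zc3h12c. The changes of these 14 ran from -4.87 (Trim34a) to -3.28 (Zc3h12c) on the log2 scale. Tagln2, which binds actin, was at 59.9 and 18.4 CPM in dKO and 267, 899 and 377 CPM in Id1, and Lgals3bp, a galectin ligand, was at 31.2 and 2.13 CPM against 170 to 233 CPM. Stab2, a hyaluronan scavenger receptor, was outside these 15 and abundant: 81.3 and 53.1 CPM in dKO against 484, 581 and 680 CPM (-3.07 ± 0.30, adjusted p = 0.00495). Several TRIM genes of chromosome 7 were lower. Trim12a was at 8.59 and 3.54 CPM in dKO and 132, 101 and 123 CPM in Id1 (-4.17 ± 0.45, adjusted p = 0.00616), Trim30d at 4.87 and 4.96 CPM against 40.8 to 107 CPM, Trim34a at 1.43 and 0.708 CPM against 17.9 to 55.7 CPM, and Trim5 at 6.59 and 5.67 CPM against 30.9 to 36.4 CPM. These 4 are neighbours within 1 Mb of Trim12a, where 7 other genes were fitted and 3 passed, all of them these TRIM genes. Trim12c, in the same cluster, was at 297 and 223 CPM against 133 to 231 CPM and did not pass (adjusted p = 0.224). The genes are related in sequence, so their counts are uncertain where reads could be shared.

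Genes near the altered loci were also read, in 10 Mb around each. Around Tcf3, 15.6% of 96 fitted genes passed (7 higher, 8 lower) and around Tcf12 9.41% of 85 (3 higher, 5 lower), beside 8.05% over all fitted genes. Stab2 and Rora, described above, are among those around Tcf3 and Tcf12. Within 1 Mb of Tcf3, 4 of 25 fitted genes passed (16.0%), all lower: Zbtb7a, Csnk1g2, Rexo1 and Eef2. Tex9, beside Tcf12 within 1 Mb, was at 24.6 and 36.8 CPM in dKO and 111, 126 and 113 CPM in Id1 (-1.90 ± 0.35, adjusted p = 0.0296). It did not pass without any 1 of the Id1 libraries.

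The genes above differed in which libraries their call rested on. Muc6, Stab2, Fosb, Ccr4 and Trim12a did not pass without Id1 replicate 2, and passed without each of the other 4 (adjusted p = 0.0592 for each). Ccr9, Nfkbia, Zfp36l1 and Txnip did not pass without Id1 replicate 1 or 2 (0.0504 to 0.0618). Ccr2, Ahr, Smc4 and Lgals3bp did not pass without Id1 replicate 1, 2 or 3 (0.0513 to 0.105). Ly6a, Tagln2, Trim30d and the NK receptor gene Klre1 did not pass without dKO replicate 3 or Id1 replicate 1 or 2 (0.0521 to 0.105). Ywhaz also did not pass without dKO replicate 3 or Id1 replicate 1 or 2. Other genes passed with all libraries but kept the call in only 1 of the fits with a library left out. For Calcrl, Cd44, Il2rg, Itgb3, Pcsk1, Furin, Ccl5, Cx3cr1, Hspa8, Trim34a, Trim5, Naip6, Zfp36l2, Itga1, Hmgb2, Cenpf, Eef2, Atp5b and mt-Nd4l it was the fit without dKO replicate 1. For Rps29 it was the fit without Id1 replicate 2, and for Ccl3 that without dKO replicate 3. Ccl3 and Vgll3 thus rested on dKO replicate 1.

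RNA of other cell types was read from summed marker levels, which are descriptions with no test. Of 15 NK and ILC1 genes 5 were fitted, all of them through their dKO mean alone, so a higher call was favoured by the limit of 20 CPM and the count supports nothing. The members that passed were Klre1 (32.9 and 84.3 CPM against 0.124 to 2.26 CPM, 5.49 ± 1.04, adjusted p = 0.0297), Klrd1 (15.2 and 118 CPM against 0.372 to 3.01 CPM, 5.63 ± 1.15, 0.0324) and Klrk1 (32.1 and 85.0 CPM against 5.47 to 16.1 CPM, 2.61 ± 0.66, 0.0490). Klrd1 and Klrk1 passed only without dKO replicate 1 when 1 library was left out. All 5 fitted fibroblast and smooth muscle genes and the fitted epithelial gene also entered through dKO alone. Summed over its 15 members, the NK and ILC1 list was at 215 and 424 CPM in dKO and 47.4 to 52.2 CPM in Id1. The NK transcription factor gene Tbx21 was at 6.87 and 4.96 CPM in dKO against 0 to 0.744 CPM in Id1. Eomes, another, was at 2.0 and 9.92 CPM against 0 to 3.46 CPM, so its groups overlapped. Both genes were under the limit, and their part in the result was not tested. Summed markers of fibroblasts and smooth muscle were at 103 and 267 CPM in dKO and 5.7 to 25.5 CPM in Id1, with Col1a1 and Eln passing. Per kilobase of exon, Col1a1 and Eln were at 9.54 and 2.46 times the Olfr and Vmn level in dKO replicate 1. In dKO replicate 3 they were at 0.407 and 0.849 times that level. Col1a1 did not pass without dKO replicate 1 or any 1 Id1 library, nor Eln without dKO replicate 3 or any 1 Id1 library. Lung epithelial markers summed to 111 and 120 CPM against 15 to 25.1 CPM, with Scgb1a1 passing only while all 5 libraries were used (adjusted p 0.0506 to 0.129 with 1 left out). Neutrophil markers summed to 36.9 and 41.8 CPM against 0.824 to 5.02 CPM, and B cell markers to 415 and 149 CPM against 115 to 328 CPM. Much of the B cell sum was Ighm, at 217 and 74.4 CPM in dKO and 113 to 315 CPM in Id1. Igkc (101 and 5.67 CPM against 0 to 1.49 CPM), Ms4a1 (26.3 and 9.92 against 0 to 2.68) and Pax5 (30.4 and 19.8 against 0 to 0.412) lay above every Id1 library. Cd79a did not (0.859 and 0 CPM against 0 to 1.12 CPM). Macrophage, monocyte and dendritic cell markers summed to 201 and 173 CPM against 28.8 to 135 CPM, and mast cell, basophil and eosinophil markers to 129 and 171 CPM against 42.3 to 73.3 CPM, with Hdc higher and Cpa3 lower. Cpa3 did not pass in any fit with 1 library left out (0.0554 to 0.154), nor Hdc without dKO replicate 3 or any 1 Id1 library (0.0634 to 0.104). Endothelial markers summed to 106 and 215 CPM against 69.0 to 90.5 CPM, and erythroid markers to 12.9 and 29.8 CPM against 8.68 to 11.1 CPM. Tek, an endothelial receptor gene, passed with 1 count in dKO replicate 1 and 144 in dKO replicate 3, and its adjusted p without dKO replicate 3 was 0.720. Sftpc, the surfactant gene of lung epithelium, had 1 count in dKO replicate 1 and none elsewhere. The sums were not corrected for the Olfr and Vmn level, which was higher in both dKO libraries. Fitted members at 5 times that level per kilobase or more in both dKO libraries were 0 of 5 for fibroblasts and smooth muscle. They were 0 of 3 for endothelial, 0 of 3 for mast cell, basophil and eosinophil and 0 of 1 for B cell markers. The NK and ILC1 list had 4 of 5, the macrophage, monocyte and dendritic cell list 1 of 2 and the epithelial list 1 of 1. Whether these cells took part in the differences above was not tested.

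In the metabolic, signalling and housekeeping lists 0 to 2 members of each passed in edgeR, beside 8.05% of all fitted genes, a share these counts are too small to be set apart from. Of 8 fitted T cell receptor and coreceptor genes, 9 STAT5 feedback and target genes and 19 actin cytoskeleton genes none passed, with median log2 changes of 0.64, -0.52 and -0.73. At an unadjusted p under 0.05 in edgeR these lists had 1, 3 and 7 members, and DESeq2 called 0, 1 and 6 of them and limma-voom 1, 1 and 3. Of 10 oxidative phosphorylation genes 1 was lower (Atp5b), and of 13 mitochondrially encoded genes 1 was higher (mt-Nd4l) and 1 lower (mt-Co1, which did not pass in any fit with 1 library left out). Of 13 ubiquitous reference genes 2 were lower (Ywhaz and Eef2) with a median log2 change of -0.79, of 25 cytosolic ribosomal protein genes 1 was higher (Rps29), and of 13 fitted glycolysis genes and 12 interferon response genes none passed. The last 2 lists had 3 and 1 members at an unadjusted p under 0.05, and DESeq2 and limma-voom each called 1 in either list. The ribosomal and mitochondrial lists depended on the method. Limma-voom called 11 of the 25 ribosomal protein genes and 10 of the 13 mitochondrially encoded genes, and DESeq2 3 in either list. Of all 7579 genes, limma-voom called 1332 and DESeq2 1895. Ywhaz was at 1157 and 444 CPM in dKO and 3294 to 3851 CPM in Id1 (-2.16 ± 0.38, adjusted p = 0.0262). Of 15 cell division genes 2 were higher: Hmgb2 (223 and 315 CPM against 65.9 to 133 CPM, 1.63 ± 0.39, adjusted p = 0.0455) and Cenpf (26.1 and 158 CPM against 13.2 to 16.0 CPM, 2.76 ± 0.68, 0.0464). Mki67 was at 89.6 and 279 CPM against 138 to 198 CPM and did not pass (adjusted p = 0.814). A miss of the threshold with 2 and 3 libraries does not show that these genes did not differ.

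The same genes were read in 2 libraries of thymic ILC2 from dKO mice, which come from another table and were not tested against the lung. Areg had 1 and 3 counts there (0.393 and 1.33 CPM), and Calca and Ccr8 had none, which allows up to 1.18 and 1.33 CPM. Mid1 was at 338 and 136 CPM, Ccr9 at 489 and 735 CPM, Naip1 at 21.6 and 37.2 CPM, and Trim12a at 0.393 and 0.443 CPM. Kit was at 43.6 and 128 CPM and Ccr4 at 37.3 and 27.9 CPM. Both thymic libraries lay above every Id1 lung library for Mid1, Naip1 and Ccr9, and below every one for Kit, Ccr4, Ccr8 and Trim12a, which are the directions of lung dKO. Areg, Calca and Nfkbia (15.3 and 17.3 CPM) lay below every Id1 lung library too, opposite to lung dKO. Muc6 (6.29 and 34.1 CPM) lay on both sides of the Id1 lung libraries, and Hist1h2bc (3.93 and 5.31 CPM) within their range.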

How the data were processed

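RNA-seq libraries of lung ILC2 were analysed (2 dKO, 3 Id1). Per the labels, the RNA was total RNA isolated in Trizol, and library construction was Illumina's. The submitters' processing notes name mm10 and DESeq2; aligner, counting program, strand setting and annotation were not given in the sources used here. The deposited values are raw counts per Ensembl gene. Names, biotypes and positions came from GENCODE M21 (48664 of 48881 IDs matched). Left out before scaling were 2 mitochondrial rRNA genes, 1821 Olfr and Vmn genes and 13 genes of the Gm10800 family; Gm21738 among them was added after a blastn match, beyond the 12 listed at first. Protein-coding genes with a mean of 20 CPM or more in 1 group were fitted with edgeR 4.0.16 (R 4.3.3; TMM, quasi-likelihood, no covariate; 3 residual degrees of freedom; biological coefficient of variation 0.509) and adjusted by Benjamini-Hochberg. The code was tested on simulated data. At 1411641 counts, 1 CPM was 1.41 reads in dKO replicate 3. No source says that equal replicate numbers pair samples, so the fit held no pairing. The differences between numbers 1 and 3 in dKO and in Id1 correlated at -0.030 across the fitted genes. That value cannot decide whether the numbers pair, since dKO replicate 3 stood apart from the other libraries. Genes named were the 4 central genes, the altered genes, the 15 largest changes each way among passing genes without overlap (predicted genes, V, D and J segments and sex-linked genes left out), and list members by adjusted p and level, plus those stated as chosen later; 1 gene with a small adjusted p is not reported here. The members and lists were chosen with earlier results of these data known. Alternatives are in the closing section.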

Additional observations from a re-analysis of the deposited data

How the results depend on the processing

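Over 21 alternatives, the 102 named genes gave 2044 values: 1521 kept direction and side of the threshold, 519 kept direction but lost the call, 4 gained it and 0 changed sign. Areg, Calca, Mid1, Naip1 and Hist1h2bc passed under every alternative that was run. Without Id1 replicate 2, 93 of the values lost their call, without Id1 replicate 1 82, without dKO replicate 3 63, and with the Olfr and Vmn level subtracted 89. The count of 610 (410 higher, 200 lower) was within 1.5 times under DESeq2 size factors (602), no scaling (586), upper-quartile factors (607, of which 76.6% were higher against 67.2%; the median log2 change of all genes was then 0.11, against 0.01), totals over the fitted genes (569) and Gm21738 kept (603). It moved to 1895 (1285 higher, 610 lower) with DESeq2, 1332 (1056 higher, 276 lower) with limma-voom quality weights, where 79.3% were higher, 3167 (2532 and 635) with all genes of filterByExpr, where 79.9% were higher, 4145 (3158 and 987) with no filter, 1007 (711 and 296) at 10 CPM, 313 (195 and 118) at 50 CPM, 303 (208 and 95) with 20 CPM over all libraries, and 398 (280 and 118) with the left-out families kept. Fitted by filterByExpr, with no filter or at 10 CPM, the fitted genes had medians of -0.24, -0.47 and -0.11. With a library left out, counts ran from 9 to 2033 (8 to 1170 higher, 1 to 863 lower). With a replicate block on numbers 1 and 3, 1291 passed (895 and 396), but no source says that these numbers pair samples. Among genes at 5 times the Olfr and Vmn level or more in every library of a group, 256 passed (157 and 99), and with that level subtracted 12 (12 and 0; 1500 at an unadjusted p under 0.05); both were chosen after seeing the data, and the cause of each shift was not tested, except that filters change the genes tested and left-out libraries the samples. Depth limits dKO most, since 1 CPM is 1.41 reads in dKO replicate 3.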

Other observations

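T cell receptor constant genes are not protein-coding in the annotation and stood outside the comparison above; they were read in the edgeR fit of all 18104 genes kept by filterByExpr, in which 17.5% of genes passed. Tcrg-C2, a gamma chain constant gene, was at 1766 and 1069 CPM in dKO and 113, 266 and 165 CPM in Id1 (log2 change 2.77 ± 0.41, adjusted p = 0.0143). Trdc, the delta constant gene, was at 283 and 188 CPM against 68.5, 102 and 71.0 CPM (1.35 ± 0.35, adjusted p = 0.0272), and Trbc1, a beta constant gene, at 598 and 832 CPM against 291, 303 and 314 CPM (1.02 ± 0.28, adjusted p = 0.0349). For these 3 genes both dKO libraries lay above every Id1 library. Trbc2, also a beta constant gene, was at 245 and 189 CPM against 97.3 to 251 CPM and did not pass (0.24 ± 0.41, adjusted p = 0.741). The other gamma constant genes did not pass: Tcrg-C1 was at 730 and 482 CPM against 401 to 837 CPM (adjusted p = 0.825) and Tcrg-C4 at 847 and 402 CPM against 636 to 1195 CPM (adjusted p = 0.317). The alpha constant gene Trac was at 4.01 and 2.13 CPM in dKO and 1.0 to 2.36 CPM in Id1, while Cd3e was at 441 and 53.1 CPM against 246 to 402 CPM. Related constant genes can share reads, so their separate values are uncertain.

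The surface receptor gene Slamf6 and 2 further NK receptor genes, chosen after their values were seen, were higher in dKO. Slamf6 was at 80.5 and 77.2 CPM against 7.26, 10.3 and 9.92 CPM (3.14 ± 0.41, adjusted p = 0.0135), and did not pass without Id1 replicate 1 or 2. Klrc1 was at 23.5 and 128 CPM against 1.61 to 3.68 CPM (4.91 ± 0.81, adjusted p = 0.0224) and Klrc2 at 41.8 and 91.4 CPM against 3.97 to 8.60 CPM (3.53 ± 0.60, adjusted p = 0.0246). Klrc1 and Klrc2 lie beside each other on chromosome 6 and are related in sequence, and neither passed without dKO replicate 3 or without Id1 replicate 1, 2 or 3.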
